A study of Mus musculus with 9 samples.

Results

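The genes described here encode the subunits, regulators and assembly chaperones of the proteasome. Members were all genes whose symbol on the array platform starts with Psma, Psmb, Psmc, Psmd, Psme, Psmf or Psmg, read from probe sets with a single gene symbol and, where a gene had 2 such probe sets (Psma5, Psmc2 and Psmg2), from the one with the highest mean over all 9 arrays. The probe set was chosen by that mean. This gave 49 of 22180 genes. Psmc3ip and Psme3ip1 match by their first letters only: their proteins are named for binding PSMC3 and PSME3 and are not subunits. Psma4, a core subunit, was read only by probe sets that also carry the symbol of another gene and is not among the 49. The cells were NG4 mouse embryonic stem cells, a 129/Sv line with a Nanog-GFP reporter, grown in medium with LIF on gelatin. The 3 groups differed in the short hairpin RNA delivered by a pLKO.1 lentivirus, which was a control in shControl and targeted Phf5a in shPhf5a and Paf1 in shPaf1. Transduction was followed by 72 h of selection in 2 μg/mL puromycin and each group had 3 arrays. PHF5A is a subunit of the SF3b splicing factor that also interacts with the PAF1 complex, a regulator of elongation by RNA polymerase II.

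The proteasome degrades proteins marked with ubiquitin. Its core particle is a barrel of outer rings of alpha subunits (Psma genes) and inner rings of beta subunits (Psmb genes), and the peptidases PSMB5, PSMB6 and PSMB7 cut proteins inside the barrel. The regulatory particle caps the barrel: a ring of ATPases (Psmc genes) unfolds substrates, and the remaining base and lid subunits (Psmd genes) bind ubiquitin and remove it. Dedicated chaperones (Psmg genes for the core, Psmd5, Psmd9 and Psmd10 for the base) guide assembly. In immune cells and after interferon, PSMB8, PSMB9 and PSMB10 replace the standard peptidases and form the immunoproteasome, which shapes the peptides shown by MHC class I. Embryonic stem cells are known for high proteasome activity.

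All levels below are the deposited values, taken from their range to be log2, on which a difference of 1 is a 2-fold difference. Levels of different genes come from different probes, so a higher value on one probe set than on another is not a higher level of that gene's RNA. Values are given in the order of replicates 1, 2 and 3, differences are those of group means with the standard error (SE) of the fit, and a gene was called higher or lower at an adjusted p below 0.05 in limma, with Benjamini-Hochberg adjustment over all 22180 genes. The labels do not say that the 3 arrays of a group came from separate cultures, so p-values measure the spread between these arrays, which may be technical. Both knockdowns were compared with the same 3 shControl arrays. Phf5a fell by 1.24 (SE 0.16) in shPhf5a, to 42.4% of its control level, and Paf1 fell by 1.39 (SE 0.08) in shPaf1, to 38.2%. Each target was also called lower, by less, under the other hairpin: Phf5a fell by 0.57 (SE 0.16, adjusted p = 0.0183) in shPaf1, to 67.2%, and Paf1 fell by 0.25 (SE 0.08, adjusted p = 0.0267) in shPhf5a, to 84.3%. Phf5a was least reduced in shPhf5a replicate 2, at 11.10 against 10.40 and 10.60 in replicates 1 and 3, and this array stood nearest to the controls for 27 of the 31 members that fell in shPhf5a. Without it, 34 members were called lower in shPhf5a. Over all probe sets, shPhf5a replicate 2 correlated (Pearson) with replicates 1 and 3 at 0.99309 and 0.99441, and replicates 1 and 3 with each other at 0.9962. Whether the nearness of replicate 2 to the controls is particular to the members was not tested. Of 10 embryonic stem cell markers, 7 fell in shPhf5a and 1 rose, and 7 fell in shPaf1 and none rose. Over all genes 20.7% were called lower in shPhf5a and 17.8% in shPaf1. Among genes with a shControl mean of at least 9, those shares were 47% and 42.7%. Of 10 fibroblast markers, 2 rose in shPhf5a and 3 in shPaf1, where 16.7% and 18% of all genes were called higher, and their mean level ran from 6.35 to 6.36 in shControl, 6.38 to 6.45 in shPhf5a and 6.55 to 6.62 in shPaf1; their part in the results below was not tested. Each group has 1 hairpin, so effects outside the target cannot be told apart from those of the target.

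Proteasome genes fell in both knockdowns, and few rose. In shPhf5a, 31 of 49 members (63.3%) were called lower and 1 was called higher, where 20.7% of all genes were called lower and 16.7% higher. In shPaf1, 32 members (65.3%) were called lower and 1 was called higher, against 17.8% and 18% of all genes. The median difference over the members was -0.35 in shPhf5a and -0.34 in shPaf1, where the medians over all genes were -0.03 and -0.01. All 3 knockdown arrays lay below all 3 shControl arrays for 35 members in shPhf5a and 37 in shPaf1, where 25.9% and 25% of all genes did so. Falls were mostly well under 2-fold: on the chosen probe sets, Psmg1 and Psmb10 passed 2-fold in shPhf5a and no member did in shPaf1, while the mean over both Psmc2 probe sets fell by 1.07 in shPaf1. In bulk RNA, fewer cells of a type and less RNA per cell cannot be told apart.

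Genes that were bright in shControl were called lower more often than all genes. Brightness was set here by the shControl mean, which is also the reference of each difference from shControl. This choice can tilt the shares of bright genes toward falls, here and wherever they are given for such differences. The size of that tilt was not tested. The members' shControl means ran from 5.21 (Psma5) to 12.50 (Psmb5), with a median of 10.79, and 38 of 49 were at 9 or above. Among all 4624 genes at 9 or above in shControl, 47% were called lower in shPhf5a and 42.7% in shPaf1, with medians of -0.16 and -0.13. The 38 members in that range were called lower in 24 cases (63.2%) in shPhf5a and in 26 cases (68.4%) in shPaf1, with medians of -0.41 and -0.36. The members' shares thus lay nearer to those of genes bright in shControl than to those of all genes. Whether the remaining distance is particular to the members was not tested.

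**Figure D1:**
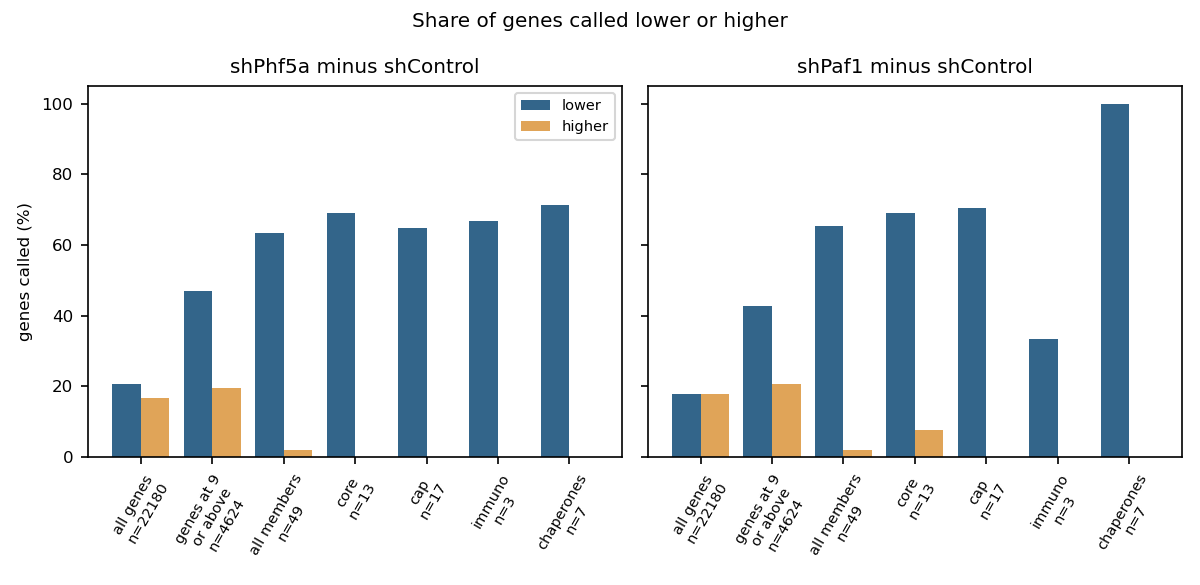
Bars give the percentage of genes called lower (blue) or higher (orange) against shControl in shPhf5a (left) and shPaf1 (right), for all 22180 genes, for the 4624 genes with a shControl mean of at least 9, for the 49 members and for 4 groups of members (cap, the regulatory particle; immuno, the immunoproteasome). The members' bars for lower calls reach 63.3% and 65.3%, above the bars of bright genes at 47% and 42.7%, and all 7 chaperones were called lower in shPaf1.

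**Figure D2:**
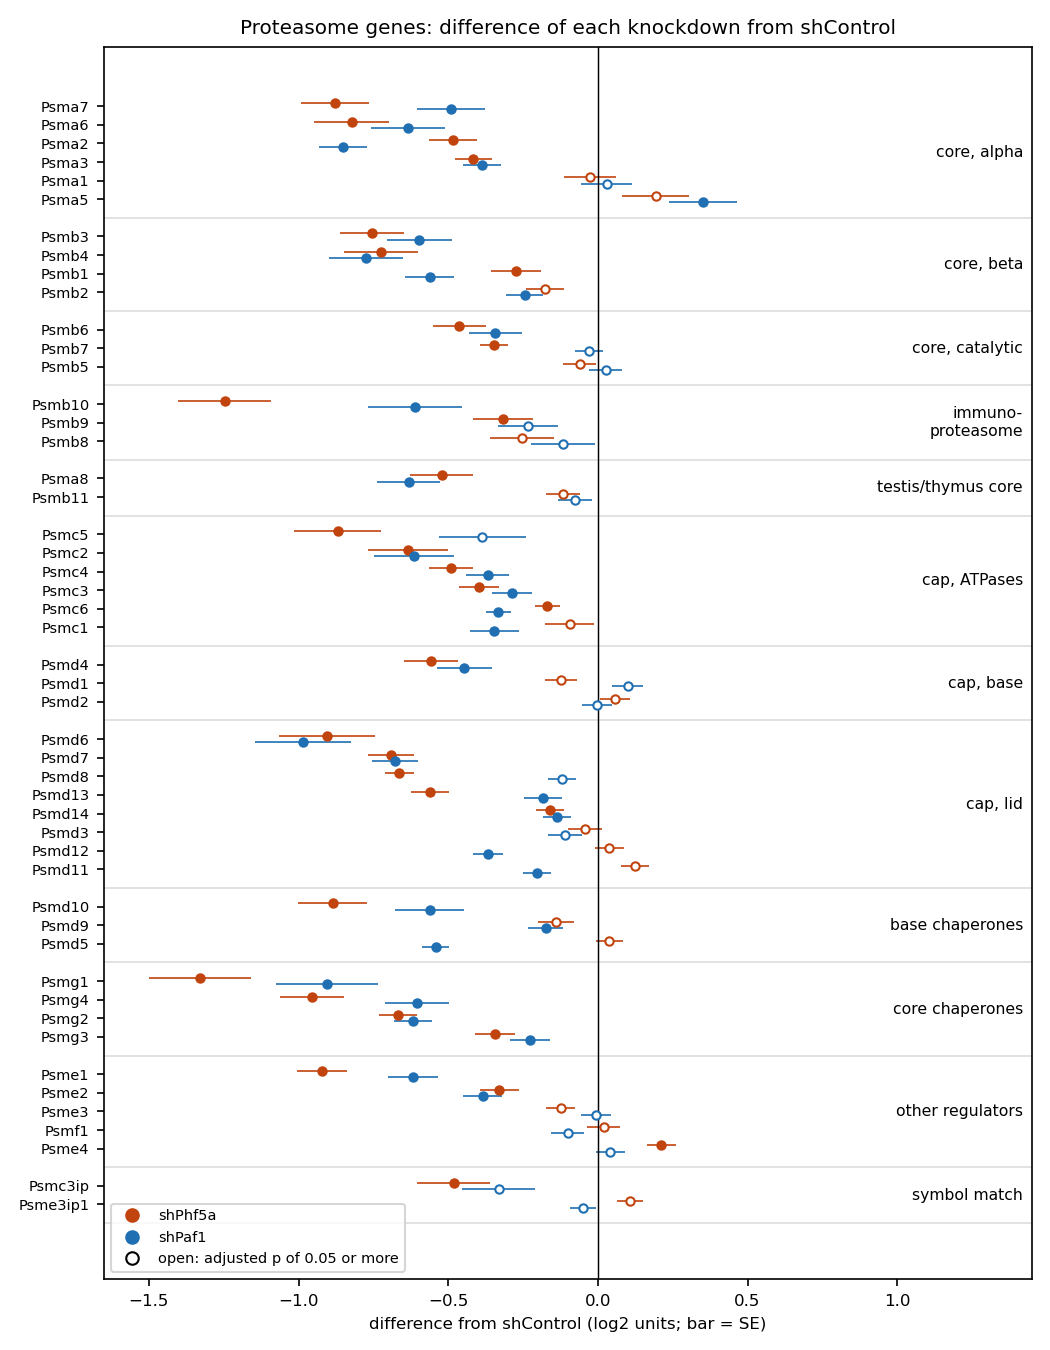
Each of the 49 members has a row with its log2 difference from shControl on the horizontal axis, in shPhf5a (orange) and shPaf1 (blue), with the SE as a bar and open points for adjusted p of 0.05 or more. Most points lie left of 0. Psmg1 is farthest left in shPhf5a at -1.33 and Psmd6 in shPaf1 at -0.98.

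Of the 13 core particle genes with a measured standard subunit, 9 fell in shPhf5a and none rose, and in shPaf1 9 fell and 1 rose. The falls make 69.2% of the 13 genes in each knockdown. Here and for the parts that follow, 20.7% of all genes were called lower in shPhf5a and 17.8% in shPaf1. Among genes at 9 or above in shControl, these shares were 47% and 42.7%. The alpha subunits form the gate through which substrates enter. Of the 6 measured, 4 fell in each knockdown: Psma2, Psma3, Psma6 and Psma7. Psma7 read 10.79, 10.88 and 10.71 in shControl, 9.68, 10.11 and 9.94 in shPhf5a, and 10.48, 10.19 and 10.23 in shPaf1. All 3 groups were separate, with shPhf5a lowest. Psma7 fell by 0.88 (SE 0.11, adjusted p = 0.000233) in shPhf5a and by 0.49 (SE 0.11, adjusted p = 0.00657) in shPaf1. Psma2 had the opposite order of knockdowns: it read 11.01, 11.12 and 10.98 in shControl, 10.42, 10.71 and 10.53 in shPhf5a, and 10.22, 10.08 and 10.26 in shPaf1. Here, too, no array of a group reached into another group. Psma2 fell by 0.49 (SE 0.08, adjusted p = 0.00102) in shPhf5a and by 0.85 (SE 0.08, adjusted p = 3.08e-05) in shPaf1. Psma6 fell by 0.82 and 0.63, and Psma3 by 0.42 and 0.39. Psma1 was not called in either, at -0.03 in shPhf5a (95% interval -0.22 to 0.16) and 0.03 in shPaf1 (-0.16 to 0.22).

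Psma5 was the member called higher in shPaf1. Its probe set had the lowest signal among those of the members, at 5.15, 5.04 and 5.43 in shControl, 5.36, 5.41 and 5.43 in shPhf5a, and 5.47, 5.43 and 5.78 in shPaf1. The shControl and shPaf1 arrays met at 5.43. The difference was 0.35 (SE 0.11, adjusted p = 0.0343), and the call was lost without shControl replicate 1 or 2 or shPaf1 replicate 3 and in a fit of these 6 arrays alone. A second, dimmer Psma5 probe set, with a shControl mean of 4.96, differed by 0.12 (adjusted p = 0.0847) in shPaf1.

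The structural beta subunits form the inner rings together with the peptidases. Of 4 genes, 3 were called lower in shPhf5a and all 4 in shPaf1. Psmb3 read 8.56, 8.76 and 8.55 in shControl, 7.95, 8.05 and 7.60 in shPhf5a, and 8.02, 8.07 and 7.99 in shPaf1. The knockdowns overlapped each other and not the controls. Psmb3 fell by 0.75 (SE 0.11, adjusted p = 0.000414) in shPhf5a and by 0.60 (SE 0.11, adjusted p = 0.0016) in shPaf1. Psmb4 read 11.82, 11.88 and 11.83 in shControl, 10.91, 11.46 and 10.98 in shPhf5a, and 11.08, 10.98 and 11.14 in shPaf1. Its replicate 2 of shPhf5a lay nearest to the controls. Psmb4 fell by 0.73 (SE 0.12, adjusted p = 0.00113) in shPhf5a and by 0.77 (SE 0.12, adjusted p = 0.00073) in shPaf1. Psmb1 fell by 0.27 and 0.56; its shPhf5a call was lost in 5 of 18 alternative settings: quantile normalization and leaving out shControl replicate 1 or 2 or shPhf5a replicate 1 or 3. Psmb2 differed by -0.18 in shPhf5a (adjusted p = 0.0504) and fell by 0.24 in shPaf1. In shPhf5a, Psmb2 was called lower in 7 of 18 alternative settings.

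Of the 3 standard peptidase genes, 2 fell in shPhf5a and 1 in shPaf1. PSMB5 carries the chymotrypsin-like site, PSMB6 the caspase-like site and PSMB7 the trypsin-like site. Psmb5 read 12.51, 12.52 and 12.49 in shControl, 12.49, 12.39 and 12.45 in shPhf5a, and 12.61, 12.54 and 12.44 in shPaf1. It was not called, at -0.06 in shPhf5a (95% interval -0.18 to 0.06) and 0.03 in shPaf1 (-0.10 to 0.15), intervals that leave out falls of the size seen for most other core genes. Psmb6 read 11.08, 11.07 and 10.99 in shControl, 10.49, 10.73 and 10.53 in shPhf5a, and 10.89, 10.66 and 10.56 in shPaf1. Both knockdowns lay below all controls. Psmb6 fell by 0.46 (SE 0.09, adjusted p = 0.00239) in shPhf5a and by 0.34 (SE 0.09, adjusted p = 0.0128) in shPaf1, a call lost without shPaf1 replicate 2 or 3. Psmb7 read 11.16, 11.25 and 11.26 in shControl, 10.84, 10.91 and 10.88 in shPhf5a, and 11.23, 11.19 and 11.17 in shPaf1. Only the shPhf5a arrays of Psmb7 stood apart. Psmb7 fell by 0.35 (SE 0.05, adjusted p = 0.000305) in shPhf5a and differed by -0.03 (SE 0.05, adjusted p = 0.69) in shPaf1. The direct difference between the knockdowns was -0.32 (SE 0.05, adjusted p = 0.000756).

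**Figure D3:**
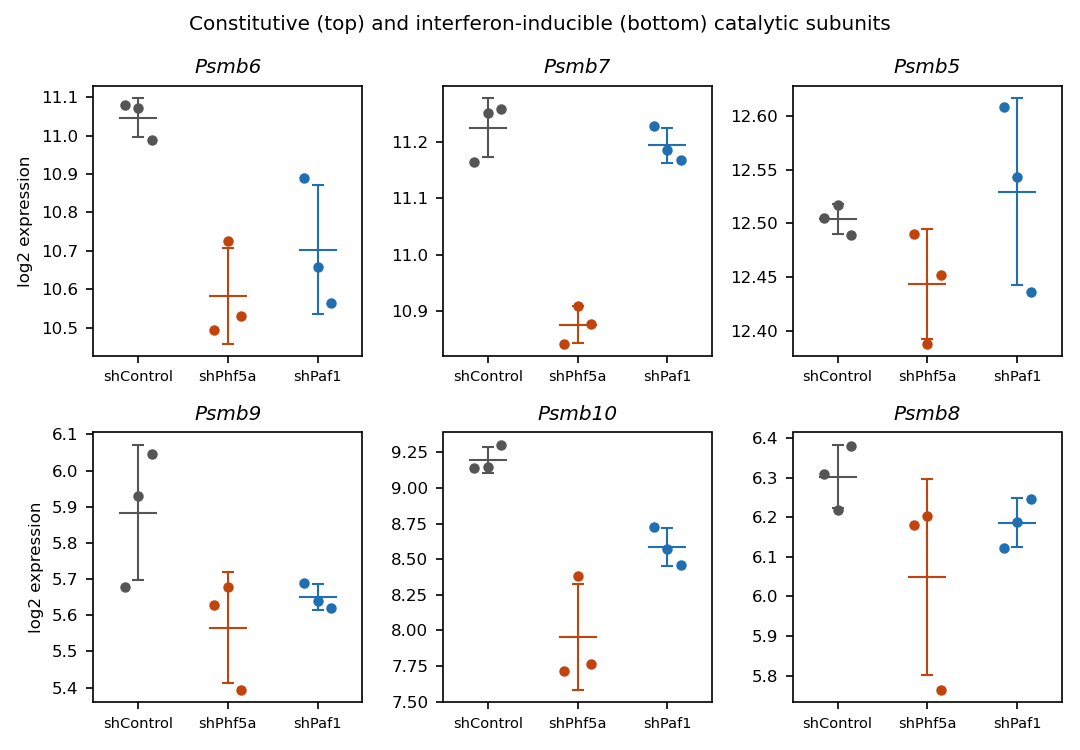
Points give the log2 level of the standard peptidase genes Psmb5, Psmb6 and Psmb7 and the immunoproteasome genes Psmb8, Psmb9 and Psmb10 on each of the 3 arrays per group, with the mean as a line and the SD as bars; each panel has its own axis, which does not start at 0. Psmb10 shows the widest separation, from 9.14 to 9.30 in shControl to between 7.72 and 8.38 in shPhf5a.

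The sequence before the start site of Psmb5 is shown because Psmb5 was the core peptidase without a call and holds a match to the motif TGACNNNGC, the core of the antioxidant response element, through which NFE2L1 (also called NRF1) is known to raise proteasome genes. Sequences here and below come from RefSeq on GRCm38.p6, run 5′ to 3′ on the named gene's strand, and have in capitals every match on either strand to TGACNNNGC, to CCAAT (the NF-Y box), to GAAA followed after 2 bases of any kind by a second GAAA (interferon response) or to TTCNNNGAA (STAT). The stretch is chr14:54617996-54618095 on the minus strand, the 100 bases before the start.
Psmb5: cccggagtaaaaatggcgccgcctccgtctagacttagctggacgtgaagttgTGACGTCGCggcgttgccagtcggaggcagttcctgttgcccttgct
Among the 41 members with an entry in the RefSeq promoter table (250 bases before to 50 after the start), 6 held TGACNNNGC (Psmb5, Psmb6, Psmc6, Psmd12, Psmd9 and Psme4), which is 14.6%, where 14% of all genes of the table held it. CCAAT was found in 16 members (39%, against 41.1% of all genes). The interferon response string was found in 5 (Psmb3, Psmd4, Psmd9, Psme1 and Psmg4), which is 12.2% against 3.99%. TTCNNNGAA was found in 3 (Psmb8, Psmd2 and Psmg1), which is 7.32% against 9.55%. A match is a string of letters and not a shown binding site. The promoter table holds 32851 windows for 27025 genes, and a gene was counted if any of its windows held the string. Each printed stretch comes from the first window listed for its gene.

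The interferon-type string is shown in Psmb3 and Psmd4, the members among its 5 holders that belong to the core and the base of the cap and fell in both knockdowns. The Psmb3 stretch is chr11:97703234-97703333 on the plus strand, upstream of the start, and the Psmd4 stretch is chr3:95042615-95042714 on the minus strand, the 100 bases before the start, in which ATTGG is a CCAAT match on the opposite strand.
Psmb3: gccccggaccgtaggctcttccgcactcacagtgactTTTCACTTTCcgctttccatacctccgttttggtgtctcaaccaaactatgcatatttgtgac
Psmd4: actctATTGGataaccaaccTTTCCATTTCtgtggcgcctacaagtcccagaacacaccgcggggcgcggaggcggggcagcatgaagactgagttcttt

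Of the 17 regulatory particle genes, 11 (64.7%) fell in shPhf5a and 12 (70.6%) in shPaf1, and none was called higher. All 17 were above 9 in shControl, with Psmd13 lowest at 9.26. Of all genes at 9 or above, 47% and 42.7% were called lower. Of the 6 ATPase genes, 5 fell in each knockdown. Psmc5 read 9.71, 9.82 and 9.73 in shControl, 8.52, 9.22 and 8.91 in shPhf5a, and 9.41, 9.23 and 9.45 in shPaf1. Both knockdowns lay below the controls, and the shPhf5a array nearest to shPaf1 was replicate 2. Psmc5 fell by 0.87 (SE 0.14, adjusted p = 0.00102) in shPhf5a and differed by -0.39 (SE 0.14, adjusted p = 0.0652) in shPaf1. In shPaf1, Psmc5 was called lower in 7 of 18 alternative settings. Psmc2 read 10.67, 10.67 and 10.60 in shControl, 9.71, 10.37 and 9.97 in shPhf5a, and 10.08, 9.99 and 10.03 in shPaf1. Its level fell by 0.63 (SE 0.13, adjusted p = 0.00386) in shPhf5a and by 0.62 (SE 0.13, adjusted p = 0.00467) in shPaf1. A second Psmc2 probe set, with a shControl mean of 8.75, gave larger falls of 1.00 (adjusted p = 0.00498) and 1.53 (adjusted p = 0.000394), so the size of the Psmc2 change depends on the probe set. Psmc4 fell by 0.49 and 0.37, Psmc3 by 0.40 and 0.29, and Psmc6 by 0.17, a call lost with quantile normalization, and 0.33. Psmc1 differed by -0.09 in shPhf5a, uncalled, and fell by 0.35 in shPaf1.

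Of the base subunits without ATPase activity, the ubiquitin receptor Psmd4 fell and the large scaffolds Psmd1 and Psmd2 were not called. Psmd4 read 10.48, 10.38 and 10.34 in shControl, 9.67, 10.03 and 9.83 in shPhf5a, and 10.05, 9.85 and 9.96 in shPaf1. No knockdown array reached the controls. Psmd4 fell by 0.56 (SE 0.09, adjusted p = 0.000946) in shPhf5a and by 0.45 (SE 0.09, adjusted p = 0.00348) in shPaf1. Psmd2, at 0.06 (95% interval -0.05 to 0.17) in shPhf5a and 0.00 (-0.11 to 0.11) in shPaf1, was not called.

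In the lid, which carries the deubiquitinase PSMD14, 5 of 8 genes were lower in shPhf5a and 6 of 8 in shPaf1. Psmd6 read 10.93, 10.97 and 10.92 in shControl, 9.66, 10.47 and 9.98 in shPhf5a, and 9.96, 9.86 and 10.05 in shPaf1. Every knockdown array lay below the controls, and shPhf5a spread widely. Psmd6 fell by 0.91 (SE 0.16, adjusted p = 0.00148) in shPhf5a and by 0.98 (SE 0.16, adjusted p = 0.000871) in shPaf1. Psmd7 fell by 0.69 and 0.68. Psmd8, a lid subunit, read 12.10, 12.06 and 12.01 in shControl, 11.40, 11.45 and 11.33 in shPhf5a, and 11.95, 11.93 and 11.93 in shPaf1. Its shPhf5a arrays stood far below both other groups. Psmd8 fell by 0.66 (SE 0.05, adjusted p = 1.04e-05) in shPhf5a and differed by -0.12 (SE 0.05, adjusted p = 0.083) in shPaf1. Psmd12 showed the reverse: it read 11.29, 11.33 and 11.27 in shControl, 11.25, 11.40 and 11.35 in shPhf5a, and 10.92, 10.92 and 10.95 in shPaf1. The shPaf1 arrays alone were low. Psmd12 differed by 0.04 (SE 0.05, adjusted p = 0.616) in shPhf5a and fell by 0.37 (SE 0.05, adjusted p = 0.000287) in shPaf1. Psmd11 differed by 0.12 (adjusted p = 0.0652) and fell by 0.20 (adjusted p = 0.00674), a call lost with quantile normalization. Psmd13 fell by 0.56 and 0.18, and Psmd14 by 0.16 and 0.14; in shPaf1 the calls of Psmd13 and Psmd14 were lost in 9 and 10 of 18 alternative settings, and in shPhf5a that of Psmd14 in 4 of 18. Psmd3 was not called, at -0.04 and -0.11.

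Of the 7 assembly chaperones, 5 fell in shPhf5a and all 7 in shPaf1, with median differences of -0.67 and -0.56. Over all genes, 20.7% and 17.8% were called lower. Psmg1 encodes a chaperone that pairs with PSMG2 to start the alpha ring. Psmg1 read 10.70, 10.63 and 10.65 in shControl, 8.99, 9.81 and 9.21 in shPhf5a, and 9.88, 9.75 and 9.64 in shPaf1. Both knockdowns lay far below the controls, and replicate 2 of shPhf5a lay within the range of shPaf1. Psmg1 fell by 1.33 (SE 0.17, adjusted p = 0.000225) in shPhf5a, to 39.8% of control, and by 0.90 (SE 0.17, adjusted p = 0.00206) in shPaf1, to 53.4%. Psmg4, which pairs with PSMG3, read 8.53, 8.31 and 8.39 in shControl, 7.27, 7.68 and 7.42 in shPhf5a, and 7.92, 7.68 and 7.81 in shPaf1. Psmg4 fell by 0.96 (SE 0.11, adjusted p = 0.000104) in shPhf5a and by 0.60 (SE 0.11, adjusted p = 0.00139) in shPaf1. Psmg2 fell by 0.67 and 0.62 on its brighter probe set. A second, dim Psmg2 probe set, with a shControl mean of 5.35, differed by -0.07 (adjusted p = 0.436) and 0.05 (adjusted p = 0.618), and the mean of both gave falls of 0.37 and 0.29. Psmg3 fell by 0.34 and 0.23, the latter a call lost without shControl replicate 2 or 3 or shPaf1 replicate 2. The core particle genes had medians of -0.42 and -0.39 and the regulatory particle genes of -0.40 and -0.33, and whether the chaperones differ from them was not tested.

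The first part of the Psmg1 window is shown as the member with the largest fall; it holds a TTCNNNGAA match. It is chr16:95991111-95991210 on the minus strand, and begins 250 bases before the start.
Psmg1: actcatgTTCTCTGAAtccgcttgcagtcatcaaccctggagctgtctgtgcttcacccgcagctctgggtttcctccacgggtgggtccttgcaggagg

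The base chaperones split. Psmd10 (gankyrin) read 10.06, 10.08 and 9.98 in shControl, 8.84, 9.35 and 9.28 in shPhf5a, and 9.57, 9.46 and 9.41 in shPaf1. The 3 groups did not overlap. Psmd10 fell by 0.89 (SE 0.12, adjusted p = 0.000253) in shPhf5a and by 0.56 (SE 0.12, adjusted p = 0.0035) in shPaf1. Psmd5 read 11.13, 11.18 and 11.18 in shControl, 11.21, 11.16 and 11.23 in shPhf5a, and 10.58, 10.66 and 10.62 in shPaf1. Control and shPhf5a arrays overlapped, and shPaf1 lay well below both. Psmd5 differed by 0.04 (SE 0.04, adjusted p = 0.579) in shPhf5a and fell by 0.54 (SE 0.04, adjusted p = 1.4e-05) in shPaf1. Psmd9 differed by -0.14 (adjusted p = 0.095) and fell by 0.18 (adjusted p = 0.0449), a call lost in 8 of 18 alternative settings.

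The immunoproteasome gene Psmb10 fell, and its partners Psmb8 and Psmb9 were dim throughout. Psmb10 read 9.14, 9.15 and 9.30 in shControl, 7.72, 8.38 and 7.76 in shPhf5a, and 8.73, 8.57 and 8.46 in shPaf1. The 3 groups were separate. Psmb10 fell by 1.25 (SE 0.16, adjusted p = 0.000198) in shPhf5a, to 42.1% of control, and by 0.61 (SE 0.16, adjusted p = 0.0116) in shPaf1. Psmb9 read 5.68, 5.93 and 6.04 in shControl, 5.63, 5.68 and 5.39 in shPhf5a, and 5.69, 5.64 and 5.62 in shPaf1. Control replicate 1 lay within both knockdowns. Psmb9 was called lower in shPhf5a, by 0.32 (SE 0.10, adjusted p = 0.0299), a call lost in 4 of 17 alternative settings, and differed by -0.23 (SE 0.10, adjusted p = 0.102) in shPaf1. Psmb8 read 6.31, 6.22 and 6.38 in shControl, 6.18, 6.20 and 5.76 in shPhf5a, and 6.12, 6.19 and 6.25 in shPaf1. It was not called, at -0.25 (adjusted p = 0.0967) and -0.12 (adjusted p = 0.478). In shPhf5a, Psmb8 was called lower in 4 of 17 alternative settings.

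Immune cells carry high immunoproteasome levels, so their markers are given beside these genes. The mean level of 9 measured immune markers ran from 6.97 to 7.05 in shControl, 6.80 to 6.87 in shPhf5a and 7.0015 to 7.0329 in shPaf1, with 3 of 9 lower and 1 higher in shPhf5a and 1 lower and 2 higher in shPaf1. Of all genes, 20.7% were called lower and 16.7% higher in shPhf5a, and 17.8% and 18% in shPaf1. Ptprc, the pan-leukocyte marker, read 5.05, 5.02 and 5.04 in shControl, near the lowest values of the arrays. Ptprc was the dimmest of the 9, and the other shControl means ran from 5.46 (Cd52) to 10.13 (Cd68). Cd68 fell by 0.42 in shPhf5a and rose by 0.44 in shPaf1. Laptm5, with a shControl mean of 9.21, rose by 0.47 and 0.23. Cd3e, at 7.88 in shControl, fell by 0.46 and 0.57, and Coro1a fell by 0.49 in shPhf5a. The part of these markers in the fall of Psmb10 was not tested.

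The stretch before the Psmb10 start is shown as that of the member with the largest fall after Psmg1 in shPhf5a; it has no capitals, since none of the 4 strings is in these 100 bases. It is chr8:105938393-105938492 on the minus strand.
Psmb10: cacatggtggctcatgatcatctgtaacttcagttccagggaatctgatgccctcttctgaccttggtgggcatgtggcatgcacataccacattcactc

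Psmb9 and Tap1, whose product carries peptides into the endoplasmic reticulum for MHC class I, start 225 bases apart and are read in opposite directions. Tap1 read 6.91, 7.13 and 7.12 in shControl, 9.12, 8.71 and 9.02 in shPhf5a, and 8.10, 8.10 and 8.10 in shPaf1. Tap1 rose by 1.90 (SE 0.10, adjusted p = 2.83e-06) in shPhf5a and by 1.04 (SE 0.10, adjusted p = 3.6e-05) in shPaf1, while Psmb9 stayed dim as given above. The shared stretch is shown in full, chr17:34187331-34187555 on the plus strand, the strand of Tap1, because Tap1 rose where Psmb9 did not.
Psmb9-Tap1 interval: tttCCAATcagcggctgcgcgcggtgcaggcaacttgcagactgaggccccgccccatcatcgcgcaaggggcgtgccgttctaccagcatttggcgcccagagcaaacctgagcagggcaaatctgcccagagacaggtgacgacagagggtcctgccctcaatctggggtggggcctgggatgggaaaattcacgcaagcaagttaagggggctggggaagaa

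Of 11 measured antigen presentation genes, Tap1 included, 3 were higher and 2 lower in shPhf5a (all genes: 16.7% and 20.7%), and 6 were higher and 1 lower in shPaf1 (all genes: 18% and 17.8%). B2m, the light chain of MHC class I, differed by -0.01 in shPhf5a and rose by 1.01 in shPaf1. H2-K1, a heavy chain, fell by 0.30 in shPhf5a and rose by 1.27 in shPaf1. Erap1, a peptide trimming enzyme, differed by 0.09 in shPhf5a and rose by 1.10 in shPaf1. Tapbp rose by 0.33 in shPhf5a and by 0.79 in shPaf1, and Nlrc5 rose by 0.37 in shPhf5a and differed by 0.14 in shPaf1. Irf9 went the other way: it fell by 0.60 (adjusted p = 8.64e-05) in shPhf5a and by 0.30 (adjusted p = 0.00439) in shPaf1. The immunoproteasome genes rose in neither knockdown.

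**Figure D4:**
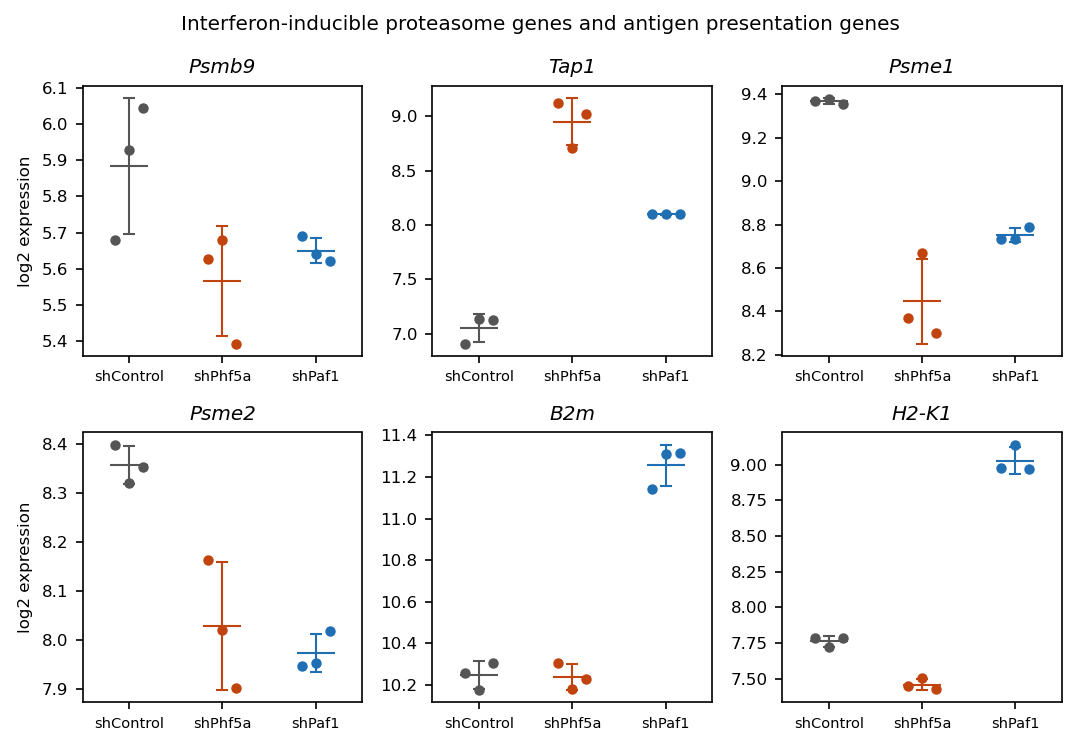
Points give the log2 level on each of the 3 arrays per group of Psmb9, Psme1 and Psme2, whose products serve antigen processing, and of Tap1, B2m and H2-K1, with the mean as a line and the SD as bars; axes differ between panels and do not start at 0. Psme1 and Psme2 lie lower in both knockdowns, Tap1 higher in both, and B2m and H2-K1 higher in shPaf1.

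Among the regulators other than the ATPase cap, the interferon-inducible activator genes fell. Psme1 read 9.37, 9.38 and 9.35 in shControl, 8.37, 8.67 and 8.30 in shPhf5a, and 8.73, 8.73 and 8.79 in shPaf1. Neither knockdown reached the narrow range of the controls. Psme1 fell by 0.92 (SE 0.08, adjusted p = 3.48e-05) in shPhf5a and by 0.62 (SE 0.08, adjusted p = 0.000287) in shPaf1. Psme2, its partner in the same ring, read 8.40, 8.32 and 8.35 in shControl, 8.16, 8.02 and 7.90 in shPhf5a, and 7.95, 7.95 and 8.02 in shPaf1. Psme2 fell by 0.33 (SE 0.07, adjusted p = 0.00298) in shPhf5a and by 0.39 (SE 0.07, adjusted p = 0.00119) in shPaf1. Psme2 has a near-identical copy, and whether its probe set also reads that copy was not tested. Psme4, a nuclear activator, was the member called higher in shPhf5a: it read 10.87, 10.85 and 10.85 in shControl, 11.03, 11.08 and 11.10 in shPhf5a, and 10.83, 10.93 and 10.93 in shPaf1. The shPhf5a arrays lay above all others. Psme4 rose by 0.21 (SE 0.05, adjusted p = 0.00584) in shPhf5a and differed by 0.04 (SE 0.05, adjusted p = 0.584) in shPaf1. Psme3, another nuclear activator, and the inhibitor Psmf1 were not called, at -0.12 and 0.02 in shPhf5a and -0.01 and -0.10 in shPaf1.

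Of the core subunits known from special tissues, Psma8, the testis form of an alpha subunit, read 9.0002, 8.9527 and 8.8672 in shControl, 8.18, 8.67 and 8.40 in shPhf5a, and 8.25, 8.37 and 8.30 in shPaf1. Its level fell by 0.52 (SE 0.10, adjusted p = 0.00298) and by 0.63 (SE 0.10, adjusted p = 0.000947). Psmb11, the thymus form, was dim and not called, at -0.12 and -0.08. Of the symbol matches, Psmc3ip, a recombination factor, fell by 0.48 (adjusted p = 0.0106) in shPhf5a and differed by -0.33 (adjusted p = 0.0606) in shPaf1, and Psme3ip1 was not called in either, at 0.11 and -0.05. In shPaf1, Psmc3ip was called lower in 8 of 18 alternative settings.

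The direct comparison of shPhf5a with shPaf1, which uses no control array in the difference, called 9 members higher and 9 lower in shPhf5a, each 18.4% of the 49, where 12.7% of all genes were called higher and 16.3% lower. Among the 4624 genes with a shControl mean of at least 9, 22.5% were called higher and 26.8% lower. The 38 members in that range had shares of 23.7% and 21.1%. Setting each array's median to a common value left 5 members higher and 9 lower. Members higher in shPhf5a were the lid genes Psmd11 and Psmd12, the base chaperone Psmd5, the core genes Psma2 and Psmb1, the ATPases Psmc1 and Psmc6, Psme4 and Psme3ip1. Members lower in shPhf5a were Psmb10, Psmd8, Psmc5, Psma7, Psmd13, Psmg4, Psmb7, Psme1 and Psmd1. The 4 with the largest differences were Psmb10, at -0.64 (SE 0.16, adjusted p = 0.0124), Psmd5, at 0.58 (SE 0.04, adjusted p = 1.91e-05), Psmd8, at -0.54 (SE 0.05, adjusted p = 3.82e-05), and Psmc5, at -0.48 (SE 0.14, adjusted p = 0.0313). The Psmb10 call was lost without shPhf5a replicate 3 or shPaf1 replicate 1, while those of Psmd5, Psmd8, Psmd11, Psmd12, Psmd13, Psmd1, Psma2 and Psmb7 held in all 18 alternative settings. The Psmc5 call was lost in 5 of 18 settings, as were those of Psma7 and Psme3ip1. Losses came in 10 settings for Psmc1, 7 for Psmg4, 6 for Psmb1 and for Psme1, 4 for Psme4 and 1 for Psmc6. Without shPhf5a replicate 2, 15 members were called lower in this comparison, and without shPhf5a replicate 3 or shPaf1 replicate 1 the number was 4. For the remaining 31 members no difference between the knockdowns was called, which does not show that they responded alike: the 95% interval of Psmd6, at 0.08, ran from -0.28 to 0.44, and that of Psmd7, at -0.01, from -0.19 to 0.16.

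**Figure D5:**
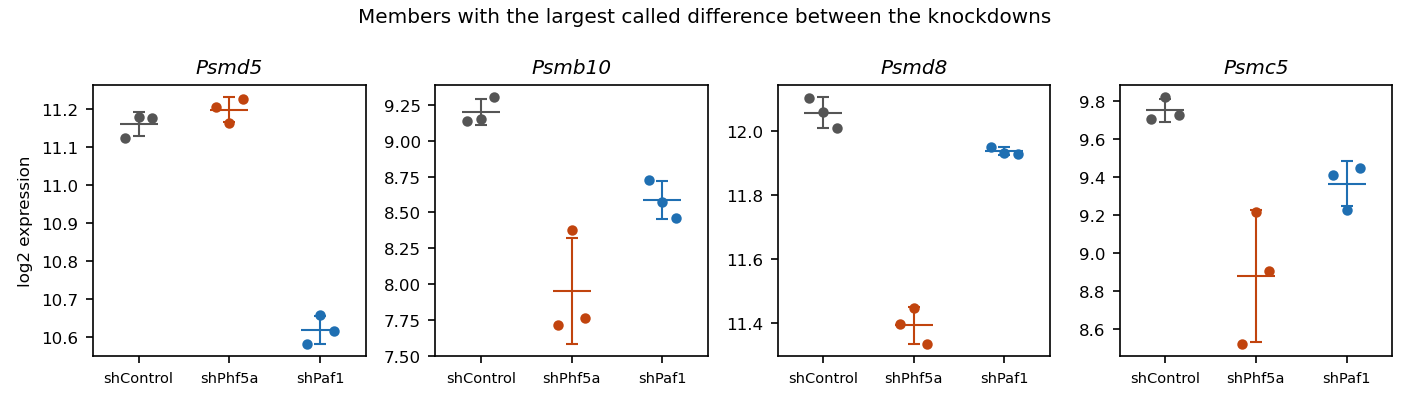
Points give the log2 level of Psmd5, Psmb10, Psmd8 and Psmc5 on each of the 3 arrays per group, with the mean as a line and the SD as bars; axes differ between panels and do not start at 0. Psmd5 is low in shPaf1 alone (10.58 to 10.66), Psmd8 is lowest in shPhf5a (11.33 to 11.45), and Psmb10 and Psmc5 lie lower in both knockdowns.

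Of 12 measured proteasome genes with other symbols, 5 fell and 2 rose in shPhf5a, and 4 fell and 3 rose in shPaf1. Over all genes 20.7% were called lower and 16.7% higher in shPhf5a, and 17.8% and 18% in shPaf1, as for the groups that follow. Pomp, which completes the beta rings, read 10.59, 10.60 and 10.46 in shControl, 9.81, 10.12 and 9.88 in shPhf5a, and 10.45, 10.39 and 10.50 in shPaf1. Its level fell by 0.61 (SE 0.08, adjusted p = 0.000261) in shPhf5a and differed by -0.11 (SE 0.08, adjusted p = 0.382) in shPaf1, with a direct difference of -0.51 (adjusted p = 0.00111). Usp14, the deubiquitinase bound to the cap, fell by 0.37 and 0.56. Zfand2a and Zfand5, stress-inducible proteins that bind the proteasome, rose by 0.54 and 0.44 in shPhf5a and by 0.49 and 0.39 in shPaf1. Midn, whose product brings nuclear proteins to the proteasome, differed by 0.05 in shPhf5a and rose by 0.66 in shPaf1.

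Of 18 measured genes tied to proteasome transcription or the oxidative stress response, 6 rose and 2 fell in shPhf5a, and 5 rose and 5 fell in shPaf1. Nfe2l1, the factor that restores proteasome genes when proteasome activity is low, read 9.45, 9.27 and 9.20 in shControl, 9.48, 9.46 and 9.45 in shPhf5a, and 9.83, 9.94 and 9.89 in shPaf1. Its mRNA differed by 0.16 (SE 0.07, adjusted p = 0.0944) in shPhf5a and rose by 0.58 (SE 0.07, adjusted p = 9.69e-05) in shPaf1. The targets of the related factor NFE2L2 were split: Sqstm1 rose by 0.78 and 0.99 and Gclc by 0.74 and 0.41, Hmox1 rose by 0.76 in shPhf5a and fell by 0.38 in shPaf1, and Nqo1 fell by 0.36 and 0.94. All 3 shControl arrays of Hmox1 held the same value, 10.8944, so they show no spread for this gene. Of the subunits of the CCAAT-binding NF-Y, Nfyb fell by 0.63 and 0.88. Nfya rose by 0.35 (adjusted p = 0.00177) in shPhf5a and differed by 0.08 in shPaf1. Nfyc was not called, at -0.002 and -0.01. Ngly1, another of the 18 genes, differed by 0.21 (adjusted p = 0.0504) in shPhf5a and fell by 0.28 (adjusted p = 0.015) in shPaf1.

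Of 9 measured ubiquitin genes and shuttle factors, 2 rose and 3 fell in shPhf5a, and 4 rose and 1 fell in shPaf1, where 16.7% and 20.7% of all genes were called higher and lower in shPhf5a and 18% and 17.8% in shPaf1. Nploc4, a cofactor of the p97 unfoldase, rose by 0.43 and 0.32. Ubqln2, Ubqln4 (shuttles of ubiquitinated proteins) and Uba6 (a ubiquitin-activating enzyme) fell by 0.33, 0.22 and 0.20 in shPhf5a and rose by 0.59, 0.26 and 0.50 in shPaf1.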

How the data were processed

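RNA of 9 samples was hybridized to Affymetrix arrays after 125 ng of total RNA was converted and labelled with whole-transcript kits, per the labels' protocols. The authors deposited 1 log2 expression value per probe set and array, from 4.352 to 13.69; the sources used here give neither background correction, normalization nor log base, and log2 was inferred from the range. Another base would change folds and not calls. Pairs of arrays within a group held exactly equal values for 1005 to 1494 of the 33793 probe sets, and the reason was not tested. Of 33793 probe sets, 23521 had 1 gene symbol, 1814 several and 8458 were not listed; the brightest single-symbol probe set stood for each of 22180 genes, with no filter on low values. limma 3.58.1 in R 4.3.3 fitted 1 mean per group over all 9 arrays, with Benjamini-Hochberg adjustment at 0.05. The fit was tested on simulated data, with 50 of 22180 genes changed in shPhf5a at each size. It called 28% of log2 changes of 0.3, 70% of 0.5 and 98% of 1, so changes of the smaller sizes were often missed. Many more genes were called in the deposited data, so these shares do not carry over directly. Array medians ran from 6.218 to 6.315; the number of arrays limits the precision. All 49 members were found by gene ID in the RefSeq table with the same symbol. Members and lists were chosen with earlier results of these data known. Levels on every array are given for the peptidase genes, for the called members with the largest rise and fall of each role in each knockdown, for up to 4 members with the largest called difference between knockdowns, and for Nfe2l1 and Pomp; up to 4 called genes of each other list are named. Array values of Psmd12, Psmg4, Psme2, Tap1 and Ptprc, the second probe sets, and the differences of Nfya and Nfyc were added after their values were seen. So were the levels and differences of the other named immune markers. Alternatives were quantile normalization, array centring, a filter on dim genes, other probe set rules, a robust trended variance, array weights, 6-array fits, the replicate block and leaving out each array; the share of calls among bright genes was added after seeing the data. Promoter strings were searched on both strands. Scanner files and scan dates were not used here.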

Additional observations from a re-analysis of the deposited data

How the results depend on the processing

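The counts of members called lower against shControl (31 in shPhf5a, 32 in shPaf1) stayed within 1.5 times in every alternative run; of the called members, 28 of 32 in shPhf5a and 26 of 33 in shPaf1 kept their call in all settings, against 8 of 18 between the knockdowns. Of the members not called, 10 of 17 in shPhf5a, 11 of 16 in shPaf1 and 20 of 31 between the knockdowns stayed uncalled in all settings. The few higher calls moved. With quantile normalization members called higher were 3 in shPhf5a and 2 in shPaf1, with 1 regulatory particle gene in each. With the mean over probe sets they were 2 in shPhf5a, 1 of them in the core particle. With dim genes left out, or with 6 arrays only, shPaf1 had 0 members and 0 core genes called higher. Between the knockdowns, array centring gave 5 members and 1 core gene higher, array weights gave 14 members lower, and 6 arrays gave 5 members lower, 1 core gene higher and 1 lower.

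Leaving out each array in turn gave 28 to 34 members lower and 1 to 2 higher in shPhf5a, and 27 to 34 lower and 0 to 1 higher in shPaf1. Core genes lower ran from 8 to 10 and from 8 to 9, and core genes higher from 0 to 1 in each. Regulatory genes lower ran from 10 to 11 and from 10 to 13. Between the knockdowns members ran from 5 to 9 higher and 4 to 15 lower, core genes from 1 to 2 and 1 to 3, and regulatory genes from 2 to 4 and 3 to 6. The fewest lower came without shPhf5a replicate 3 or shPaf1 replicate 1 and the most without shPhf5a replicate 2.

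Under 1 or more alternatives the difference changed sign for 5 of 49 members in shPhf5a, 7 in shPaf1 and 13 between the knockdowns, and none of these was called. Values follow for the members that the naming rule selects; ranges are over leaving out each array. Psmd5 in shPhf5a became -0.001 with centring. In shPaf1, Psmb7 and Psmd8 became 0.0407 and 0.0203 with quantile normalization, and Psmb5 became -0.014 without shPaf1 replicate 1 (range -0.014 to 0.0719). Between the knockdowns, Psma8, Psmb4 and Psmd6 became -0.0155, -0.1226 and -0.1362 without shPhf5a replicate 2 (highest values 0.2274, 0.1523 and 0.2654), and Psmb4 became -0.0292 with array weights. Psmb8 and Psmb9 became 0.0062 and 0.0025 without shPhf5a replicate 3 (lowest values -0.2135 and -0.14). Psmc2 became 0.0065 with quantile normalization, 0.2552 with the mean over probe sets, 0.1348 and 0.0055 without shPhf5a replicate 1 or 3, and 0.0044 without shPaf1 replicate 1 (range -0.1963 to 0.1348). The cause was not tested.

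With the replicate number as a block, 31 members were called lower and 1 higher in shPhf5a, 30 and 1 in shPaf1, and 8 and 8 between the knockdowns. Same-numbered arrays' deviations correlated between -0.0578 and 0.106, so the numbers were not taken as a pairing.

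Dim probe sets (Psma5, Psmb8, Psmb9, Psmb11) limit the size of change that can be seen. No protein was measured, nor proteasome activity.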

Other observations

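Psma4, an alpha subunit left out of the member counts because its probe sets also list AY074887, read 10.59, 10.59 and 10.58 in shControl on the brighter of 2 probe sets, 9.98, 10.26 and 10.12 in shPhf5a, and 9.96, 9.96 and 10.02 in shPaf1. This probe set fell by 0.47 (SE 0.07, limma adjusted p = 0.000445) in shPhf5a and by 0.61 (SE 0.07, adjusted p = 7.98e-05) in shPaf1. The dimmer one, with a shControl mean of 5.89, differed by -0.23 (adjusted p = 0.107) and fell by 0.34 (adjusted p = 0.0235). Which of the listed genes the signal came from was not tested.

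A probe set listed for both Armc9 and Psmd1 fell by 0.74 (SE 0.09, adjusted p = 0.000211) in shPhf5a and differed by -0.25 (SE 0.09, adjusted p = 0.0648) in shPaf1, while the probe set of Psmd1 alone differed by -0.12 and 0.10 and was called in neither. A probe set listed for Psme2 and a pair of neighbouring Riken genes differed by 0.10 and 0.17 and was not called, while the probe set of Psme2 alone fell in each knockdown.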
